A study of Homo sapiens with 5 samples.

Results

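The genes examined are 48 splicing regulators of the human line RPE-1, retinal pigment epithelial cells immortalized in culture. They were chosen by gene symbol from families named for their part in pre-mRNA splicing. No measured value entered the rule, but earlier results of these data were known when the genes were chosen. They are 13 SR proteins and SR-like factors, 20 hnRNPs, 7 core spliceosome proteins and coactivators, and 8 regulators best known for tissue-type splicing. All 48 were found among the 64252 gene rows of the count table, and all 48 were among the 15341 genes with enough counts to be tested. Raw RNA-seq counts came from 3 libraries of cells given a negative control siRNA (siCtrl, labelled On-target control siRNA and WT) and 2 libraries of cells given pooled FAM53C siRNAs (siFAM53C, labelled Fam53c siRNA and FAM53C KD), both at 5 µM and collected 48 hr after lipid transfection. All 5 libraries come from this single cell line, and effects of the individual siRNAs in the pool cannot be separated. The question the comparison addresses for these genes is whether their RNA levels differ when FAM53C, a protein that the study links to the kinase DYRK1A, is depleted. Nothing in the sources says that the libraries came from separate cultures, so p-values measure only the spread between these samples, which may be technical.

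SR proteins bind exonic sequences through RNA recognition motifs and recruit spliceosome components through a domain rich in arginine and serine. hnRNPs coat nascent RNA and often act against SR proteins at the same exons. Kinases of the SRPK, CLK and DYRK families phosphorylate the arginine-serine domain, which sets where SR proteins reside and how they act. Many of these genes limit their own output by including a poison exon, so that part of their RNA is decayed; counts summed over a whole gene cannot tell such transcripts from coding ones. In bulk RNA, fewer cells of a type and less RNA per cell also cannot be told apart.

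The libraries hold 19260124 to 25615415 counts on genes, of which the 48 genes took 1.49% to 1.54% in every library. FAM53C had 60.8, 59.7 and 57.5 CPM (counts relative to the library total, after TMM scaling, which sets library factors from the bulk of genes) in siCtrl and 14.2 and 22.3 in siFAM53C, which edgeR's quasi-likelihood test put at a log2 fold change of -1.71 (adjusted p = 0.003625). Epithelial KRT8 (259 CPM) and KRT18 (167 CPM) and mesenchymal VIM (3903 CPM) were high in siCtrl, while epithelial KRT7 was at 8.04 CPM and CDH1 and EPCAM, which define many epithelia, were near 0 (0.052 and 0.057 CPM). MITF and PAX6 of the pigment epithelium lineage were each at 40.0 CPM, and RPE65, which defines the mature pigment epithelium, was listed at 0 in all 5 libraries. The other pigment epithelium markers BEST1, RLBP1 and TYR were at 0.50, 0.017 and 0.014 CPM in siCtrl. Muscle DES, ACTN2 and MYH7 and blood CD3E were also at 0, and blood PTPRC and CD68 were at 0.43 and 0.11 CPM in siCtrl. Of the neuronal markers, MAP2 was at 35.9 CPM in siCtrl, near MITF and PAX6. TUBB3 and SNAP25 were at 3.88 and 3.86, SYP was at 0.31 and RBFOX3 at 0. The libraries also divide across conditions. Along principal component 1 of the log2 CPM (39.8% of the variance) siCtrl 3 and siFAM53C 2 lie at 33.7 and 44.9, siCtrl 1 and 2 at -31.5 and -47.4, and siFAM53C 1 at 0.26. Both siCtrl 3 and siFAM53C 2 carry the number 3 in the column names of the count table. What separates the libraries was not tested. Results are therefore also given within each side, as siFAM53C 1 against siCtrl 1 and 2 and as siFAM53C 2 against siCtrl 3. A further model adds the side as a term. On component 1, siFAM53C 1 lay between the other libraries, so its place beside siCtrl 1 and 2 was assigned and is not settled by that component.

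Sequence was examined for 1 element, the heptamer GACAAGA, which an earlier analysis of these same counts had singled out in 3′ UTRs and which is therefore a description here. The longest annotated 3′ UTR of 8 of the 48 regulators (16.7%) holds it on the mRNA strand, against 10.25% of 19198 coding genes and 11.5% of the 12072 of them that were tested, and the regulators have longer 3′ UTRs (median 2294 against 1219 bases). The sites are printed because the 8 genes that hold them were all below 0 in the comparison given later. Each is shown 5′ to 3′ with the heptamer in capitals and up to 10 flanking bases, from GENCODE release 44 on GRCh38.
SRSF11 (chr1:70252842-70252868, plus strand): tagtgccactGACAAGAtgctacagtg
TRA2B (chr3:185914558-185914575, minus strand, at the annotated end): acttaaaagtGACAAGAa
HNRNPU (chr1:244851676-244851702, minus strand): acattgaaatGACAAGAggaaactctt
SYNCRIP (chr6:85607926-85607952, minus strand): cttccatcagGACAAGActttttaggt
SF3A1 (chr22:30332074-30332100, minus strand): cctgtaattaGACAAGAaagcataata
RBM39 (chr20:35703687-35703713, minus strand): cagtgtgtttGACAAGAcagcttgata
PTBP2, first site (chr1:96818611-96818637, plus strand): tctacattttGACAAGAttggcaggtg
PTBP2, second site (chr1:96822938-96822964, plus strand): taagttataaGACAAGAtttatctctt
MBNL2 (chr13:97392159-97392185, plus strand): catccagcttGACAAGAttgagaggcc
The flanks differ from gene to gene. A match is only a match of letters in the annotated window and shows no bound factor.

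Per transcript length, the 48 genes spanned 3.59 to 666 TPM (counts divided by exon length and brought to the same total in each library) in siCtrl. HNRNPA1, which packages nascent RNA and favours distal splice sites, was highest at 666 ± 72.2 TPM (SD, n = 3), followed by HNRNPK (581 ± 52.8) and HNRNPAB (554 ± 55.2), and neighbours in this order differ by less than 2 SD. The hnRNPs had the highest median level of the 4 classes at 210 TPM, against 121 for the core proteins, 91.8 for the SR proteins and 58.3 for the tissue-type regulators. Among SR proteins, SRSF2 was highest at 283 ± 18.1 TPM, SRSF1 (229 ± 2.44) and SRSF3 (227 ± 12.3) were within their spread of each other, and SRSF8 was lowest at 38.2 ± 7.20. Among tissue-type regulators, PTBP1, the repressor of neuronal exons in non-neuronal cells, was at 338 ± 11.3 TPM, and its neuronal paralog PTBP2 was the lowest of all 48 at 3.59 ± 0.40. RBFOX2, which binds short elements beside regulated exons, was at 11.9 ± 3.25 TPM.

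**Figure D1:**
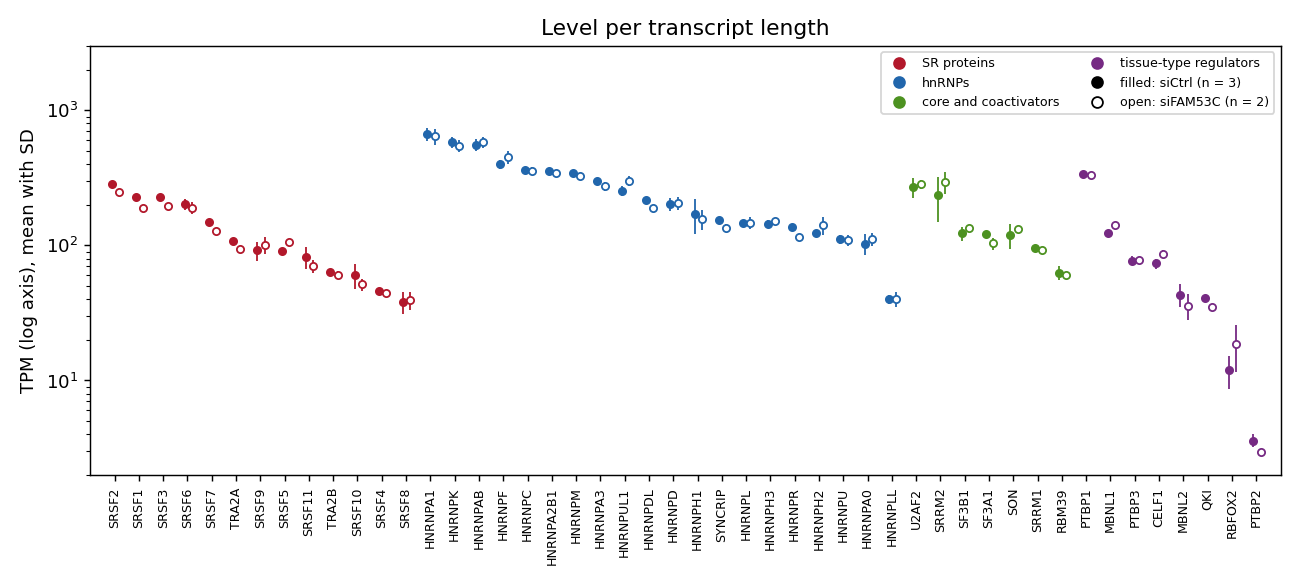
Level of each gene per transcript length in TPM on a log axis, coloured by class, with filled points for the mean of 3 siCtrl libraries, open points for the mean of 2 siFAM53C libraries and bars for the SD. hnRNPs hold the top of the range, from HNRNPA1 at 666 TPM, and PTBP2 at 3.59 TPM is the lowest gene.

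No splicing regulator passed the test between siFAM53C and siCtrl. With edgeR's quasi-likelihood test, Benjamini-Hochberg adjustment over all 15341 genes and a threshold of 0.05, 0 of 48 were lower, where 3.47% of all genes were, and 0 were higher, where 0.489% were. DESeq2 called 0 of 48, against 8.66% of all genes in either direction, and limma-voom called 0, against 3.83%. The smallest adjusted p of a regulator was 0.156 with edgeR, 0.05723 with DESeq2 and 0.1373 with limma-voom, each for SRSF1. At an unadjusted p under 0.05, 9 regulators (18.75%) were lower, against 10.5% of all genes, and 0 were higher, against 6.61%. In 16 (33.3%) both siFAM53C libraries lay below all 3 siCtrl libraries, against 18.8% of all genes, and in 3 (6.25%) above, against 16.7%. These shares lean to lower values without a call for any gene.

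The intervals rest on the spread between these libraries, which may be technical, so they do not bound a change between separate cultures. For 47 of 48 regulators (97.9%) the 95% interval lay within a 2-fold change in either direction, against 61.1% of all genes and 88.9% of genes with a mean of at least 10 CPM. The exception was RBFOX2. The median log2 fold change was -0.10, with 33 of 48 below 0, where the median of all genes was 0.016 and that of genes at 10 CPM or more -0.016. The median size of the change was 0.14 on the log2 scale, against 0.24 for all genes and 0.18 for genes at 10 CPM or more.

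**Figure D2:**
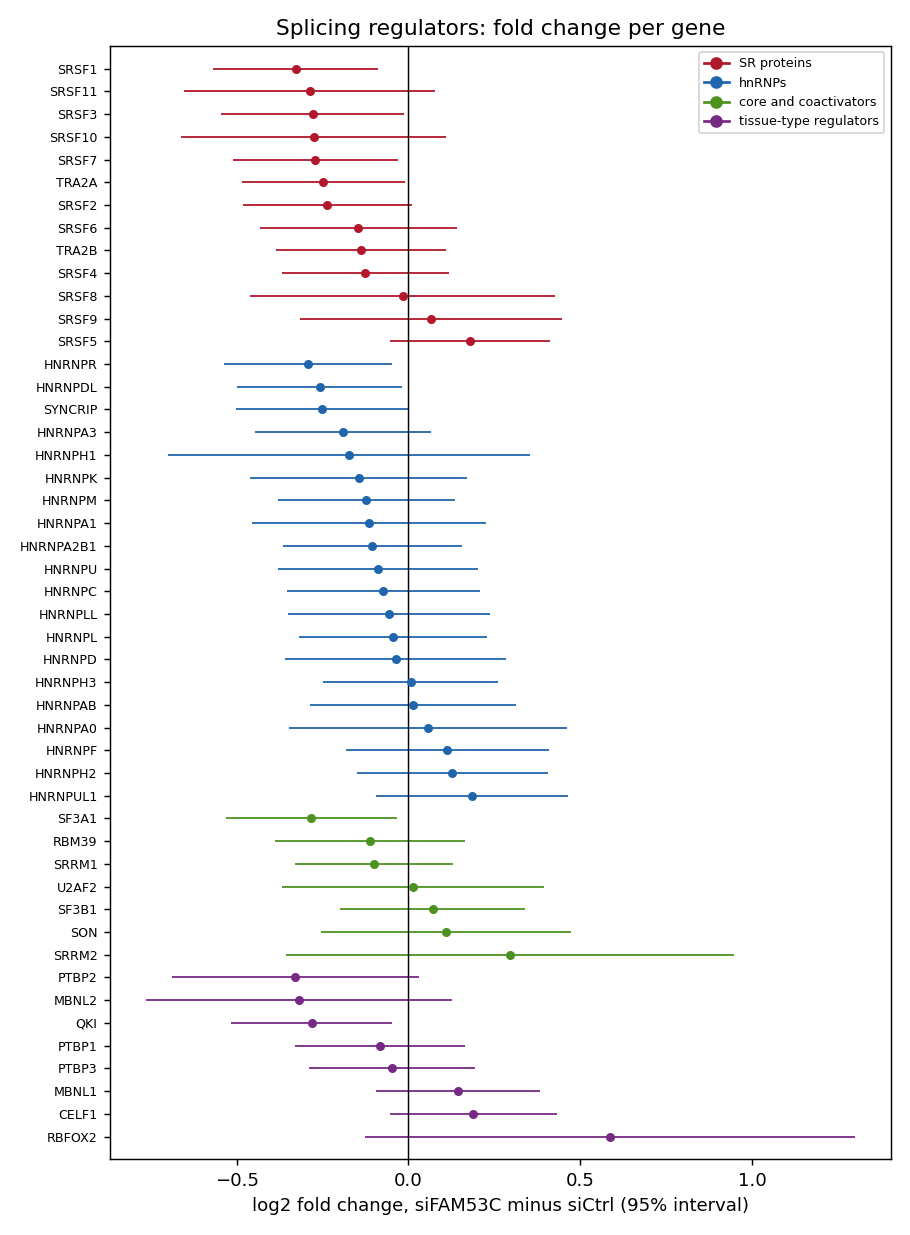
Log2 fold change of each of the 48 genes, siFAM53C minus siCtrl, with its 95% interval from edgeR, grouped and coloured by class and ordered within class. Most SR proteins lie left of 0, hnRNPs are spread around 0, and RBFOX2 has an interval that reaches 1.30.

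Of the 13 SR proteins, 11 were below 0, with a median of -0.24, and none passed the test. Without overlap, 6 lay lower and 1 higher, where 18.8% and 16.7% of all genes did. SRSF1 (chromosome 17, 58000919 to 58007346, minus strand), among the earliest SR proteins described, which promotes exon inclusion and also works in mRNA export and translation, had 336, 347 and 324 CPM in siCtrl and 262 and 273 in siFAM53C. Both siFAM53C libraries were below the lowest siCtrl library. Its log2 fold change was -0.33 (SE 0.10, 95% interval -0.57 to -0.088, adjusted p = 0.156 with edgeR), and it differed by -0.38 and -0.25 within the sides. SRSF3, a small SR protein that couples splicing to export and polyadenylation, had 412, 441 and 377 CPM against 339.6 and 336, again without overlap. SRSF7, which shuttles between nucleus and cytoplasm, had 155, 157 and 144 against 121 and 132. TRA2A, which binds purine-rich exonic enhancers, had 95.7, 93.9 and 98.5 against 76.8 and 84.9. These 3 genes also had no overlap between the conditions, siFAM53C being the lower.

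SRSF2, which is mutated in myeloid disease, had 199, 225 and 217 CPM in siCtrl against 185 and 178 in siFAM53C. TRA2B, the partner paralog of TRA2A, had 209, 212 and 216 against 180.0 and 206. Neither overlapped between conditions, and neither reached an unadjusted p under 0.05. SRSF4 had 99.5 to 108 CPM in siCtrl and 89.8 in siFAM53C 1, with siFAM53C 2 inside the siCtrl range, and SRSF6 had 242, 241 and 272 against 207 and 247.5, so both overlapped.

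SRSF5 went the other way, at 129, 122 and 120.1 CPM in siCtrl and 134 and 146 in siFAM53C, with both siFAM53C libraries above all siCtrl libraries (adjusted p = 0.4307 with edgeR). SRSF9 was at 107, 94.8 and 75.0 against 105 and 88.6, and SRSF8 at 47.0, 46.7 and 31.8 against 45.2 and 37.5. In both of these, the lower value of each condition was in siCtrl 3 or siFAM53C 2. SRSF10, which represses splicing when dephosphorylated, was at 161, 162 and 219 against 136 and 162, and SRSF11, an SR-related protein, at 172, 151 and 207 against 131 and 159. Here the higher value of each condition was in siCtrl 3 or siFAM53C 2, and the conditions overlapped.

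**Figure D3:**
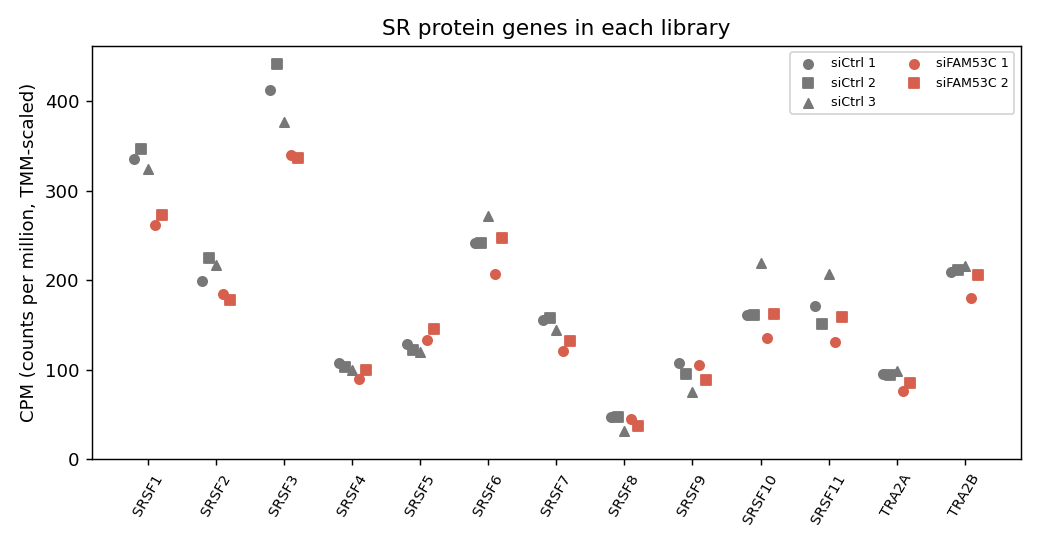
CPM of the 13 SR protein genes in each of the 5 libraries, with grey symbols for siCtrl, red symbols for siFAM53C and no averaging. For SRSF1 the siFAM53C points (262 and 273 CPM) sit under the siCtrl points (324 to 347 CPM), for SRSF5 they sit above, and SRSF10 and SRSF11 have their highest point in siCtrl 3.

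Of the 20 hnRNPs, 14 were below 0 with a median of -0.081, where 48.2% of all genes were below 0. Without overlap, 5 lay lower and 0 higher, where 18.8% and 16.7% of all genes did. The 3 with an unadjusted p under 0.05 with edgeR, all lower, were HNRNPR, SYNCRIP and HNRNPDL, where 10.5% of all genes were lower at that level. HNRNPR and SYNCRIP are closely related proteins, the second also known as hnRNP Q, that act in mRNA transport and stability. HNRNPR had 317, 299 and 286 CPM in siCtrl and 251 and 240.1 in siFAM53C, and SYNCRIP had 414, 421 and 387 against 353 and 331. HNRNPDL, which controls its own RNA through alternative 3′ UTR splicing, had 306, 300.5 and 306 against 244 and 264.5. None of the 3 overlapped between conditions, and the adjusted p-values were 0.216, 0.2926 and 0.2536 with edgeR.

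HNRNPA2B1, a reader of RNA sorting signals, had 1197, 1136 and 1092 CPM against 1065 and 1057, and HNRNPA3 had 515, 513 and 476 against 455.5 and 423. Both lay lower without overlap. Both share exon bases with genes on the opposite strand (1575 and 3509). The paper's alignment was set to reverse strandedness, but the sources do not say whether the counting used strand. HNRNPA1 had 1253, 1174 and 974 CPM in siCtrl and 1124 and 969 in siFAM53C. The poly-C binding HNRNPK had 907.5, 883 and 734.5 against 803 and 719, HNRNPC, which binds uridine tracts, had 704, 699 and 603 against 653 and 618, and HNRNPU, a chromatin-bound hnRNP, had 694, 644 and 575.5 against 628.5 and 571. In each of these 4 the lowest value of a condition was in siCtrl 3 or siFAM53C 2, and the conditions overlapped.

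Above 0 were HNRNPUL1 (474, 422 and 399.5 CPM in siCtrl against 511 and 469.5), HNRNPH2 (71.0, 77.3 and 69.0 against 86.2 and 72.0), HNRNPF (350.2, 352.5 and 294.5 against 382 and 337), HNRNPA0, HNRNPAB and HNRNPH3, all with overlap. HNRNPF, HNRNPH1 and HNRNPH2 bind guanine runs and are close paralogs. The remaining members of the class, HNRNPD, HNRNPL, HNRNPLL and HNRNPM, had adjusted p-values of 0.932, 0.9003, 0.8747 and 0.6519 with edgeR. Scaled by library totals instead of TMM, which moves all log2 fold changes up by a median of 0.071, the sign of 5 regulators turned: SRSF8, HNRNPD, HNRNPL, HNRNPLL and PTBP3.

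Core proteins and coactivators showed no common direction: 3 of 7 were below 0 with a median of 0.013. Without overlap, 2 lay lower and 0 higher, where 18.8% and 16.7% of all genes did. SF3A1, a subunit of the U2 snRNP, had 201.5, 196 and 182 CPM in siCtrl against 167 and 150.5 in siFAM53C, and this was the only core gene with an unadjusted p under 0.05 (adjusted p = 0.2367 with edgeR). SRRM1, a coactivator with arginine-serine repeats, had 195 and 189.6 CPM in siCtrl 1 and 2, a higher value in siCtrl 3, and 176.5 and 187 in siFAM53C, also without overlap. SF3B1, the U2 subunit that grips the branch point region, had 313.5, 302 and 356 against 343 and 336.5. U2AF2, which binds the polypyrimidine tract, had 326, 281 and 223 against 291 and 268, and RBM39, a U2AF-related coactivator, had 196, 169 and 206 against 171 and 181. These 3 overlapped between the conditions.

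Of the 7 core genes, the nuclear speckle scaffold SRRM2 varied most between libraries of the same condition. SRRM2 (chromosome 16, 2752626 to 2772538, plus strand) had 617, 620 and 1069 CPM in siCtrl and 804 and 1083 in siFAM53C, and SON, another speckle scaffold, had 339, 349 and 466 against 409 and 419.8. The 95% interval for SRRM2 ran from -0.36 to 0.95 around a log2 fold change of 0.30. Without siCtrl 3 the value for SRRM2 was 0.62 and past the threshold (adjusted p = 0.02941 with edgeR), whereas within the sides it was 0.38 and 0.019.

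Tissue-type regulators held 3 of the 4 genes with a log2 fold change of at least 0.3 in size. Of the 8, 3 lay lower and 2 higher without overlap, where 18.8% and 16.7% of all genes did. PTBP2 (chromosome 1, 96721665 to 96823738, plus strand) had 17.9, 16.9 and 20.0 CPM in siCtrl and 14.7 and 14.4 in siFAM53C, without overlap. Its log2 fold change was -0.33 (SE 0.16, interval -0.69 to 0.031, adjusted p = 0.3362 with edgeR), with -0.25 and -0.47 within the sides. MBNL2, a developmental splicing factor of the muscleblind family (chromosome 13, 97221434 to 97394120, plus strand), had 52.7, 50.1 and 67.7 CPM against 37.8 and 53.4, with overlap. Its log2 fold change was -0.32 (SE 0.19, interval -0.77 to 0.13, adjusted p = 0.465 with edgeR), with -0.44 and -0.34 within the sides. Without siFAM53C 1 it was -0.096 and without siCtrl 3 -0.17.

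RBFOX2 (chromosome 22, 35738736 to 36028824, minus strand) had the largest estimate of the 48 and the widest interval. Its values were 25.7, 43.3 and 42.6 CPM in siCtrl and 69.9 and 41.6 in siFAM53C, so that siFAM53C 1 stood above the rest and siFAM53C 2 was within the siCtrl range. The log2 fold change was 0.59 (SE 0.30, interval -0.13 to 1.30, adjusted p = 0.3863 with edgeR). It was 1.07 within the first side and -0.037 within the second, and 0.16 without siFAM53C 1. A difference between the conditions beyond the spread of libraries was thus not detectable for RBFOX2.

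QKI, which binds intronic elements and also drives circular RNA formation, had 174.5, 191 and 177 CPM against 151 and 147, lower without overlap, with an unadjusted p under 0.05 and an adjusted p of 0.212 with edgeR. MBNL1 had 302, 323 and 319.6 against 351 and 344 and CELF1, a factor known for acting against muscleblind proteins, had 192.5, 187 and 210.1 against 229.5 and 219, both higher without overlap (adjusted p = 0.5476 and 0.4238 with edgeR). PTBP1 had 669.5, 636 and 628 against 601 and 615, lower without overlap, and PTBP3 had 149.5, 168 and 167 against 156 and 156.4, with overlap.

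Ratios between pairs of regulators, mostly paralogs, taken within each library on the TPM scale, are free of library scaling. Their size depends on the merged exon lengths used for TPM, and only their difference between conditions does not. These lengths are 7521 bases for PTBP1 and 20122 for PTBP2, and 13084 for TRA2B and 3516 for TRA2A. In CPM, without division by length, TRA2B was above TRA2A in every library. PTBP1 exceeded PTBP2 by 99.9, 100.4 and 84.0 times in siCtrl and by 109.8 and 114 times after FAM53C siRNA. The MBNL1 to MBNL2 ratio was 2.98, 3.35 and 2.46 in siCtrl and 4.845 and 3.36 in siFAM53C. TRA2B to TRA2A was 0.586, 0.607 and 0.5898 against 0.63 and 0.65. SRSF1 to SRSF9 was 2.14, 2.505 and 2.96 against 1.71 and 2.11. Of 8 ratios computed, these 4 did not overlap between the conditions, and the other 4 did (PTBP1 to PTBP3, HNRNPL to HNRNPLL, HNRNPH1 to HNRNPH2 and HNRNPA1 to SRSF1, the last not being paralogs). The 8 pairs were picked by hand and no rate over other pairs was computed, so the count is a description only. Of single genes, 18.8% lay lower and 16.7% higher without overlap.

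Within the sides of the library split, 36 of the 48 regulators lay below 0 on the first and 30 on the second. The lean was weaker on the second side, with medians of -0.11 and -0.048, and there only 10 of 20 hnRNPs were below 0. Of the 48, 27 (56.2%) had a value below 0 on both sides, against 33.2% of all genes, and 9 had a value above 0 on both. SR proteins had medians of -0.23 and -0.13 on the 2 sides, and hnRNPs -0.096 and -0.0025. With a term for the side in the fit, 12 regulators (25%) were lower past the threshold, against 10.7% of all genes, and 0 were higher, against 6.76%. They were the SR proteins SRSF1, SRSF3, SRSF7, SRSF10, SRSF11 and TRA2A, the hnRNPs HNRNPDL, HNRNPR and SYNCRIP, and SF3A1, MBNL2 and QKI. In that fit SRSF1 was at -0.32 on the log2 scale (SE 0.078, adjusted p = 0.00876 with edgeR). SRSF10 was at -0.33 (SE 0.080, adjusted p = 0.01026), SRSF11 at -0.34 (SE 0.083, adjusted p = 0.01022) and MBNL2 at -0.40 (SE 0.095, adjusted p = 0.008213). HNRNPR and QKI were each at -0.28 (SE 0.077 and 0.080), and HNRNPDL (SE 0.077) and SRSF7 (SE 0.084) each at -0.27. TRA2A was at -0.265 (SE 0.083), SRSF3 (SE 0.080) and SF3A1 (SE 0.077) were each at -0.26, and SYNCRIP was at -0.23 (SE 0.075). These 8 had adjusted p-values from 0.0207 for HNRNPR to 0.04272 for SYNCRIP with edgeR. The sides were read from the same libraries, so this fit is no independent evidence, and none of the 12 was called in the condition-only fit.

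**Figure D4:**
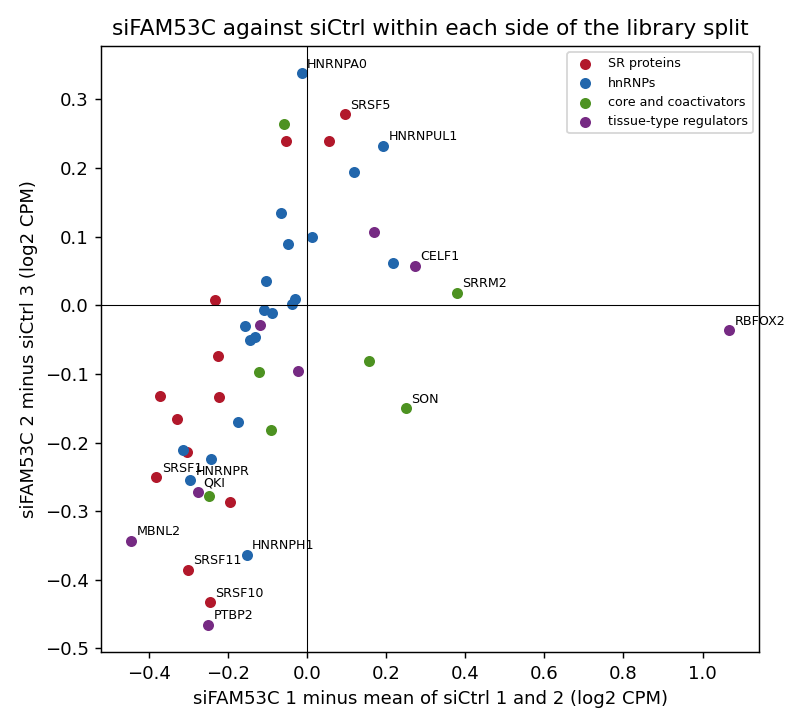
Difference in log2 CPM for each of the 48 genes within the first side (siFAM53C 1 minus the mean of siCtrl 1 and 2, horizontal) and within the second (siFAM53C 2 minus siCtrl 3, vertical), coloured by class. The lower left part, below 0 on both sides, holds 27 genes with most SR proteins, and RBFOX2 lies far right at 1.07 and near 0 on the vertical axis.

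The same regulators also differed between libraries of 1 condition. siCtrl 3 differed from siCtrl 1 and 2 by at least 0.3 on the log2 scale in 7 of them upward and 6 downward. SRRM2 was higher by 0.79, and in siFAM53C 2 higher than in siFAM53C 1 by 0.43. HNRNPH1 (chromosome 5, 179614178 to 179634784, minus strand) had 367, 328 and 531 CPM in siCtrl and 312 and 413 in siFAM53C, which gives 0.61 and 0.40. SRSF10 gave 0.44 and 0.25, SRSF11 0.36 and 0.28, and MBNL2 0.40 and 0.50. SON gave 0.44 in siCtrl and 0.039 in siFAM53C, and RBFOX2 0.35 and -0.75, so the pattern was not shared by every gene.

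Most hnRNPs lay the other way along this split. In siCtrl 3, all of the 20 but 2, HNRNPH1 and HNRNPDL, were lower than in siCtrl 1 and 2, with a median of -0.18, and the median between the siFAM53C libraries was -0.13. The sign was the same in both conditions for 19 of 20 hnRNPs, HNRNPH3 being the exception, and for 36 of all 48 regulators (75.0%), against 69.1% of all genes. HNRNPA0 gave -0.53 and -0.17, HNRNPA1 -0.32 and -0.21, U2AF2 -0.44 and -0.12 and SRSF8 -0.56 and -0.27. The total TPM of the 20 hnRNPs was 5672, 5358 and 5066 in siCtrl and 5619 and 5035 in siFAM53C, so that it ranged further between libraries of a condition than between the conditions. That of the 13 SR proteins was 1652, 1656 and 1703 against 1508 and 1526, where the conditions did not overlap.

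**Figure D5:**
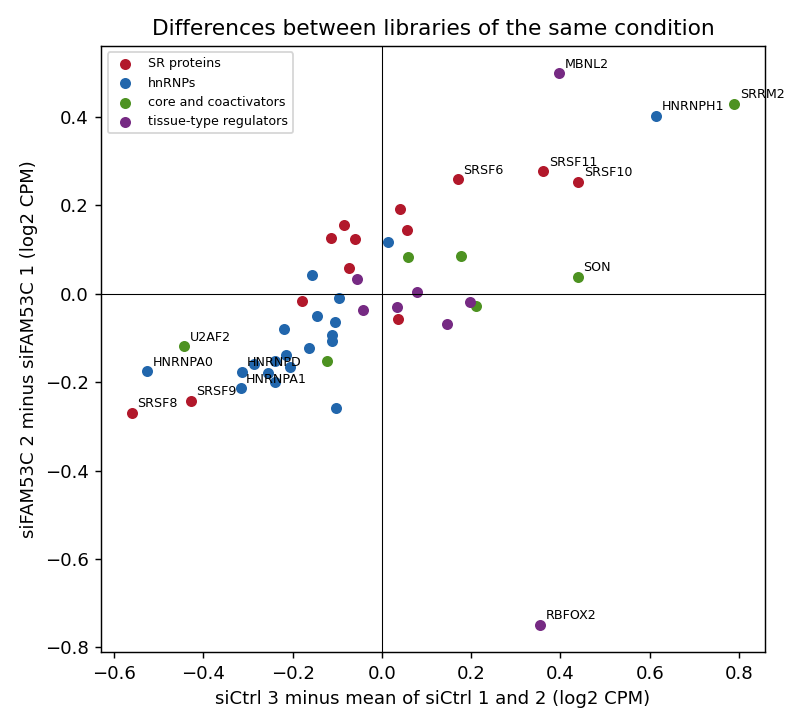
Difference in log2 CPM between libraries of the same condition for each of the 48 genes, siCtrl 3 minus the mean of siCtrl 1 and 2 (horizontal) and siFAM53C 2 minus siFAM53C 1 (vertical), coloured by class. SRRM2 (0.79 and 0.43), HNRNPH1 (0.61 and 0.40) and MBNL2 (0.40 and 0.50) lie at the upper right, most hnRNPs at the lower left, and RBFOX2 far down at the lower right.

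The regulators whose 3′ UTR holds GACAAGA, printed earlier, were all 8 below 0, with a median log2 fold change of -0.27. All 8 were also below 0 on both sides of the split. Of all genes tested, 48.2% were below 0 and 33.2% were below 0 on both sides. The 40 without it had a median of -0.066, with 25 below 0. With the term for the side, 4 of the 8 were lower past the threshold (SRSF11, SYNCRIP, SF3A1 and MBNL2). So were 8 of the 40 without it and 10.7% of all genes. Among these 8 genes, HNRNPU had the value nearest to 0 (-0.088) and PTBP2, with 2 sites, the value farthest from it (-0.33). FAM53C itself holds 1 such site. Since the heptamer was singled out on these counts, these values describe the members only. The contrast between the 8 and the 40 is no test of the element.

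The wider splicing machinery gave a backdrop of 164 genes, 145 of them with enough counts. The median over these was -0.0090 on the log2 scale, with 77 below 0, and 1 was lower and 0 were higher past the threshold, where 3.47% and 0.489% of all genes were (before adjustment, 13 and 7 had a p under 0.05, where 10.5% and 6.61% of all genes did). The gene called was CWC22 (chromosome 2, 179944876 to 180007297, minus strand), which joins the exon junction complex to the spliceosome. It had 32.2, 36.2 and 33.9 CPM in siCtrl and 21.4 in both siFAM53C libraries, which is -0.67 on the log2 scale (SE 0.13, adjusted p = 0.03055 with edgeR). It lost the call without siCtrl 1 (-0.71, adjusted p = 0.1029), siCtrl 2 (-0.62, 0.141), siFAM53C 1 (-0.67, 0.2175) or siFAM53C 2 (-0.67, 0.2049), while its value stayed between -0.71 and -0.62. DESeq2 called 5 lower, adding RBMX, DDX5, SCAF11 and NOVA1, and 1 higher, where it called 6.74% and 1.93% of all genes. RBMX, an X-linked hnRNP family protein, had 319, 312 and 314 CPM against 229 and 242, and the RNA helicase DDX5 had 622, 589 and 640.5 against 411 and 497.

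By machinery, 16 of 24 tested proteins of U1, U2 and the Sm ring were below 0 (median -0.041), as were 10 of 15 of the tri-snRNP (-0.086), 14 of 21 of the catalytic complexes (-0.070), 9 of 16 of the exon junction and nonsense-mediated decay factors (-0.040), 2 of 10 of the minor spliceosome (0.096) and 20 of 46 other regulators (0.017). Of 18 tissue-restricted regulators, such as the neuronal NOVA1, 4 were tested. U2AF1, which DESeq2 called higher, had 1.15, 0.94 and 1.26 CPM in siCtrl and 15.2 and 1.53 in siFAM53C, so the value rests on siFAM53C 1; this gene has a near-identical copy and its counts are uncertain. Of the 10 kinases and import factors that act on SR proteins, 9 were tested and 0 were called by edgeR in either direction (0 at an unadjusted p under 0.05, and 0 by DESeq2 and limma-voom). Of all genes, edgeR called 3.47% lower and 0.489% higher, and DESeq2 8.66% and limma-voom 3.83% in either direction. At an unadjusted p under 0.05 with edgeR, 10.5% were lower and 6.61% higher. With so few genes, 0 calls is near these shares and is no result about this group. SRPK1 had 139.6, 147 and 144 CPM against 132 and 142, CLK1 had 35.9, 26.1 and 43.5 against 33.5 and 38.3, and DYRK1A had 69.0, 73.8 and 84.5 against 69.7 and 68.9. CLK2 was listed at 0 in all 5 libraries. PRPF8 of the tri-snRNP and DHX16 of the catalytic complexes had at most 1 count in a library, and TAF15 at most 5. Whether such values mean absent RNA or reads lost in the counting was not tested.

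Several limits of the counting touch these genes. Exon bases on the opposite strand are shared with another gene in 18 of the 48 regulators, from 113 bases in U2AF2 to 4281 bases in HNRNPU (440 in SRSF1), and 30 share none. Processed pseudogenes are annotated for 23 regulators with 138 rows in the table, 74 of them for HNRNPA1, and together they took at most 1.81% of the parent gene's counts, for HNRNPL. Poison-exon and coding transcripts were counted together, so a shift between them at a constant total is not visible here.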

How the data were processed

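RNA from RPE-1 cells was sequenced as paired reads. Per the labels and methods, the authors used CutAdapt 2.10 for trimming, HISAT2 with reverse strandedness for alignment to hg38 and featureCounts for counting. The deposited values are raw counts, with no normalization, and the annotation release is not given in the sources used here. Conditions came from the sample labels. The labels list 3 control libraries, while the methods describe duplicates and do not say which controls were compared, so all 5 libraries were used.

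In edgeR 4.0.16 (R 4.3.3), genes were kept by filterByExpr with a minimum count of 10 and a minimum total of 15, libraries were scaled by TMM, and a condition-only model was tested with the quasi-likelihood test with robust estimation, Benjamini-Hochberg adjustment over all genes and a threshold of 0.05. CPM used TMM-scaled totals, log2 CPM a prior count of 2, and TPM the merged exon length in GENCODE release 44 (GRCh38), which also gave symbols, positions and 3′ UTRs and may differ from the authors' annotation. Intervals are 95%. The condition-only edgeR fit, DESeq2 and limma-voom were tested on simulated data, and the other fits were not. Alternatives were DESeq2 1.42.0, limma-voom (limma 3.58.1), library totals, no filter, each library left out, a replicate block and a term for the library split; the fit without robust estimation and the within-side differences were added after seeing the data. The genes, gene lists, library split and heptamer were chosen with earlier results of these data known. Every regulator is named, and a fold change with its error is given for those past the threshold in the condition-only or split fit or with a log2 fold change of at least 0.3 in size; SRRM2, HNRNPH1 and further values were chosen after they were seen. Depth was 19260124 to 25615415 counts per library, which limits precision for genes with few counts.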

Additional observations from a re-analysis of the deposited data

How the results depend on the processing

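No regulator was called by edgeR without robust estimation, by DESeq2 or limma-voom, with library totals, or without siCtrl 1, siCtrl 2, siFAM53C 1 or siFAM53C 2. Without a filter on low counts 1 regulator was higher (RBFOX2), where 1.41% of all genes were, and over the fits that leave out 1 library the count of higher regulators ran from 0 to 1 (SRRM2 without siCtrl 3, where 2.76% of all genes were higher) and that of lower ones stayed at 0. With the term for the library split 12 were lower. The other splicing genes, with 1 lower and 0 higher, gave 5 lower and 1 higher with DESeq2 (6.74% and 1.93% of all genes), 3 and 2 without the filter, 11 and 3 with the split term, and 0 to 5 lower and 0 to 1 higher over the fits that leave out 1 library.

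Whether the replicate numbers pair the libraries could not be settled, since only 2 pairs exist under either numbering. Deviations from the condition means correlated at 0.17 and -0.28 for the numbers in the titles. For those in the column names they correlated at 0.17 and 0.37. With 2 siFAM53C libraries, the deviations of these libraries mirror each other, so the correlations are not independent. With a replicate block by titles 1 regulator was higher (SRRM2) and 0 were lower, where 2.31% and 5.58% of all genes were, with 2 lower and 1 higher among the other splicing genes. With a replicate block by column names 6 regulators were lower (SRSF1, SRSF10, SRSF11, HNRNPH1, HNRNPR and MBNL2) and 0 higher, where 8.8% and 4.18% of all genes were, with 9 lower and 2 higher among the 145 other splicing genes tested. The log2 fold change of HNRNPH1, -0.17 in the condition-only fit, turned to 0.049 with the replicate block by titles, and over the fits that leave out 1 library it ran from -0.39 to 0.069, positive without siCtrl 3 (0.069) and siFAM53C 1 (0.0095). The cause was not tested. Leaving out a library leaves 2 residual degrees of freedom, and without 1 siFAM53C library the remaining one is assumed to vary like the controls.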
